A study of Mus musculus with 20 samples.

Results

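Chemokines and their receptors were followed in RNA from whole mouse ovaries at 3 ages, with and without the compound HEP14. The genes were chosen by name alone, as protein-coding genes with the GENCODE stems of chemokine ligands (Ccl, Cxcl, Xcl, Cx3cl), of their receptors (Ccr, Cxcr, Xcr, Cx3cr) or of atypical receptors (Ackr) and a number. Of 59 such genes in the annotation, 30 were among the 17651 genes of the deposited table. They were 17 ligands, 10 signalling receptors and 3 atypical receptors. The other 29 were not analysed here, among them Ccl3, Ccl19, Ccl20, Ccl21a, Ccl22, Cxcl1, Cxcl2, Cxcl13, Xcl1, Ccr1, Ccr6, Ccr9, Cxcr1, Cxcr2 and Xcr1.

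All mice were wild type, and each of the 5 groups had 4 libraries. The groups were young mice of 7 to 8 weeks, adult mice of 27 to 28 weeks given HEP14, adult mice of 27 to 28 weeks with no agent named, aged mice of 73 to 74 weeks given HEP14, and aged mice of 73 to 74 weeks given vehicle, called aged below. HEP14 is a protein kinase C activator known to raise the number of lysosomes in cells. The stated question was how the compound acts on the function of aged ovaries. Titles, and not the design text, name the adult HEP14 group. Dose, duration, any vehicle in the adult mice and the number of animals behind a library were not given in the sources used here. The p-values therefore measure the spread between libraries, which may be technical.

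Chemokines are small secreted proteins that guide migrating cells, mostly leukocytes, along gradients held by glycosaminoglycans on cell surfaces and matrix. Their receptors span the membrane, couple to inhibitory G proteins and drive movement, while atypical receptors bind the ligands without that coupling and clear or transport them. Inflammatory chemokines are induced by cytokines, whereas homeostatic ones are made at rest. In the ovary, chemokine-guided leukocytes take part in ovulation and in the turnover of the corpus luteum, and Cxcl12 with its receptor Cxcr4 is known for guiding germ cells to the gonad.

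The deposited values are scores: each gene has a mean of 0 and an SD of 1 over the 20 libraries, so a value is in SD of that gene and is neither a level nor a fold change. The depth of the libraries is unknown, and the size of a difference in 1 gene cannot be set against that in another as expression could. The step that chose the genes of the table is not stated. In aged against young ovaries 74.3% of all 17651 genes passed the test, so each count of members is set beside such a background. The aged libraries stood apart: they held 1956 to 3697 genes at a shared lowest value, against 686 to 1218 in the other libraries. The median SD within a group over the 30 members was 1.085 in the aged, 0.422 in the aged HEP14, 0.511 in the adult, 0.509 in the adult HEP14 and 0.346 in the young group. Of the members, 9 had a lowest value shared by several libraries, as genes without reads would, and these are named where they occur. Defining ovarian markers were present: 5 markers of oocytes, 4 of granulosa cells and 4 of theca and luteal cells were in the table, and in aged against young ovaries 5, 2 and 0 of them were lower and 0, 0 and 3 higher. In whole ovaries, fewer cells of a type and less RNA per cell cannot be told apart.

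**Figure D1:**
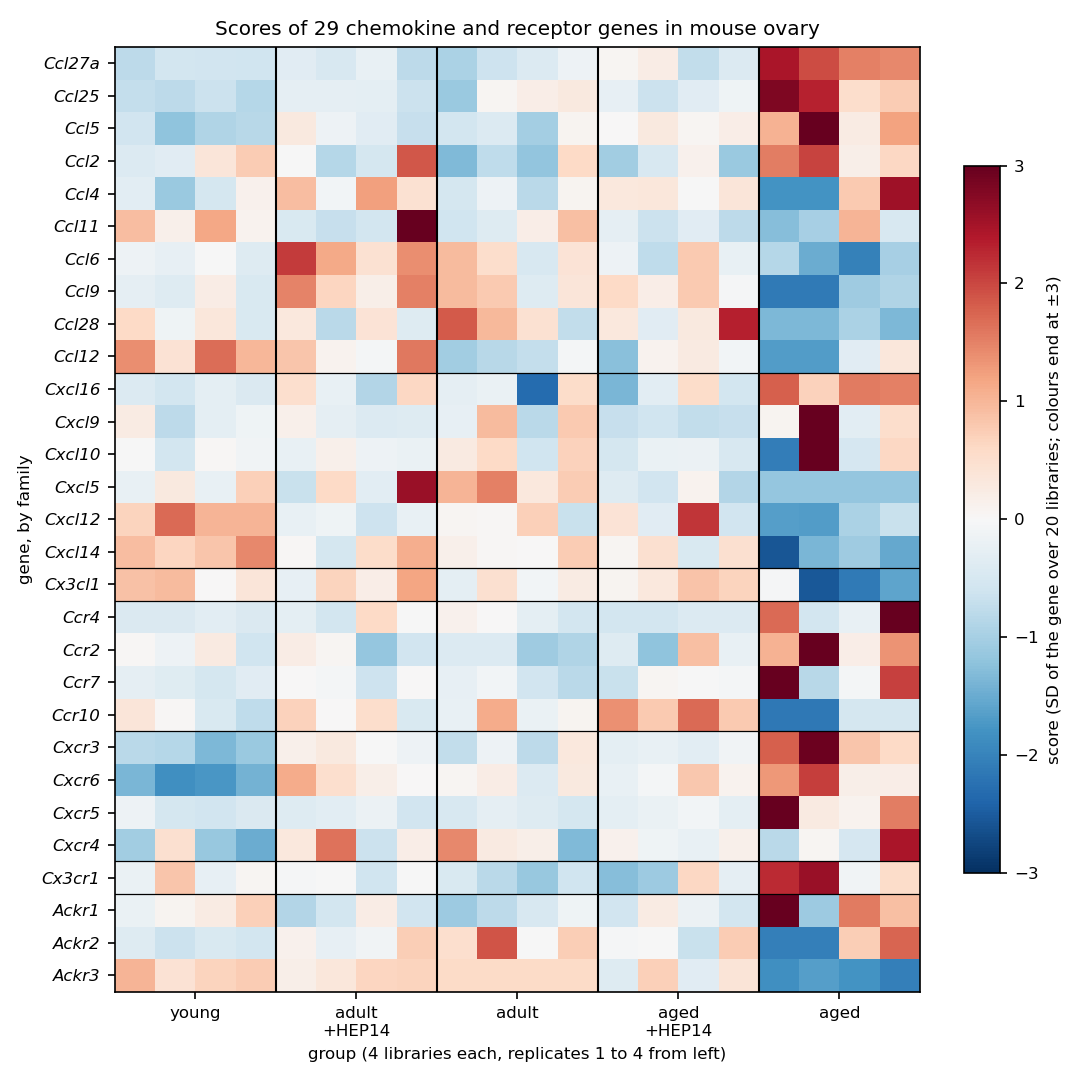
Scores (colour, in SD of the gene over 20 libraries) of 29 chemokine and receptor genes in rows, by family, with the 4 libraries of each group in columns. Most signalling receptors are red in the aged libraries and paler in the aged HEP14 libraries, while Cxcl12, Cxcl14, Cx3cl1, Ackr3, Ccl6 and Ccl9 are blue in the aged libraries.

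In aged against young ovaries Cxcr3, Cxcr6, Cxcr5, Ccr2 and Ccr7, receptors on lymphocytes or monocytes, were higher, and so were the ligands Ccl5, Ccl25, Ccl27a and Cxcl16. Ccr10, also a lymphocyte receptor, was lower, and Cxcr4 did not pass. The ligands Cxcl12 and Cxcl14, the membrane-bound Cx3cl1, the scavenger Ackr3 and the myeloid ligands Ccl6 and Ccl9 were lower. In all, 12 of the 30 members were higher and 10 lower at an adjusted p under 0.05, against 33% and 41.3% of all genes, and 8 did not pass. For 7 members the 4 aged libraries lay wholly above the young ones and for 9 wholly below them, against 24.7% and 35.4% of all genes. The share of members that passed was 73.3%, close to the 74.3% of all genes, so their number is not a result about them. The median difference was 0.96 SD over the members and -0.41 SD over all genes. By class, of 10 signalling receptors 8 were higher and 1 lower, and of 17 ligands 4 were higher and 8 lower. These counts depended on the fit: 3 receptors were higher and 0 lower with the compared groups only, 5 and 0 both with a separate variance per group and without aged libraries 1 and 2, and 9 and 0 with equal library medians. The ligands were 3 higher and 5 lower with a separate variance per group, 5 and 4 without aged libraries 1 and 2, and 6 and 5 with equal library medians.

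**Figure D2:**
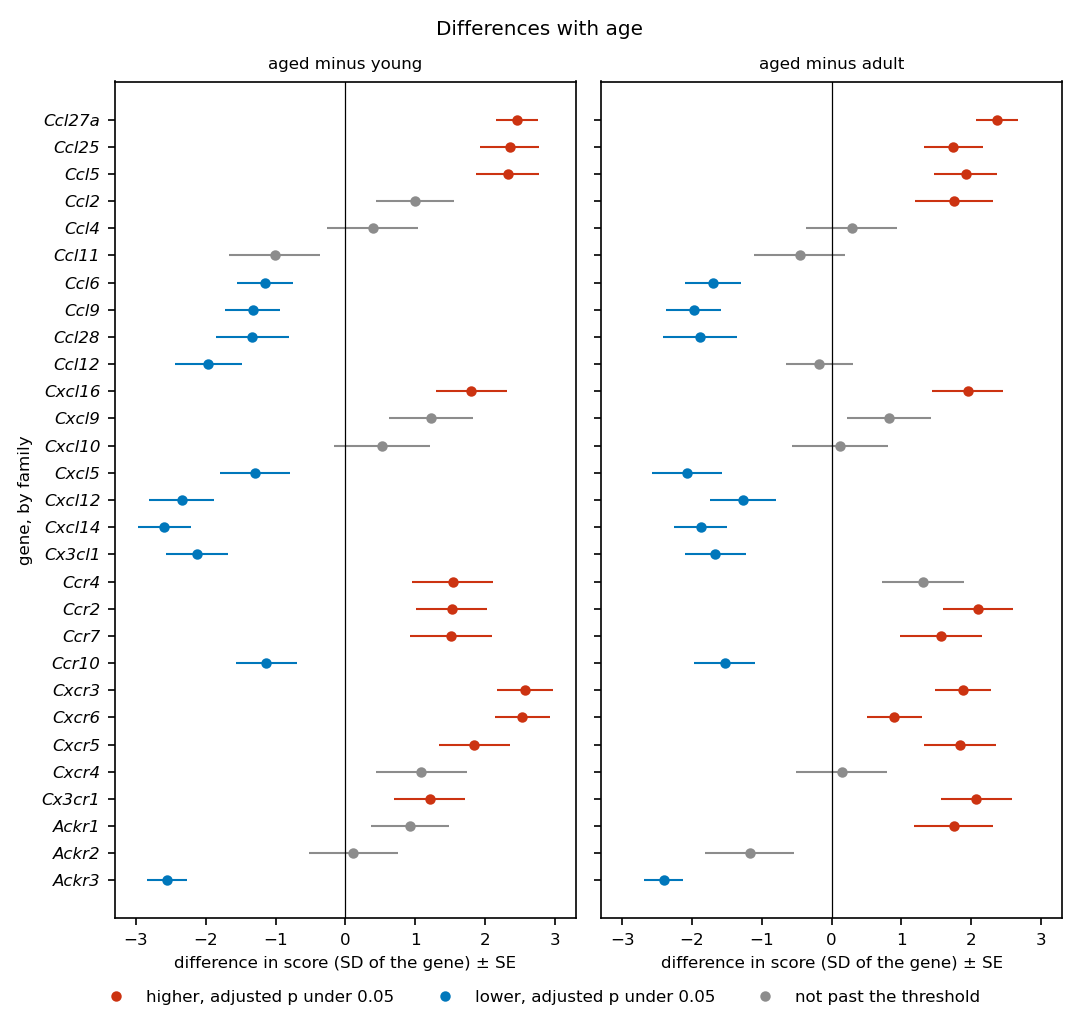
Differences in score (points, in SD of the gene, with SE bars) of 29 members in aged minus young ovaries on the left and in aged minus adult ovaries on the right, coloured by the limma test. Cxcr3, Ccl27a, Ccl25 and Ccl5 lie to the right of 0 and Ackr3, Cxcl14 and Cx3cl1 to the left of it in both panels.

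Cxcr3, the receptor of activated T and NK cells for the interferon-induced ligands Cxcl9 and Cxcl10 (chromosome X, 101731535 to 101734269, minus strand of GRCm38), had scores of 1.80, 2.94, 0.82 and 0.59 in the aged libraries, against -0.82, -0.85, -1.34 and -1.12 in the young libraries. All 4 aged libraries lay above all young ones, with aged library 2 highest. The difference was 2.57 SD (SE 0.40, adjusted p = 1.13e-05). The adult libraries had scores of -0.75, -0.16, -0.77 and 0.31 and lay below the aged ones as well, with a difference of 1.88 SD (SE 0.40, adjusted p = 0.000371) in aged against adult ovaries. Its ligands did not pass. Cxcl9 had 0.093, 3.64, -0.33 and 0.54 in aged and 0.25, -0.80, -0.30 and -0.12 in young libraries, and its difference was 1.23 SD (SE 0.60, adjusted p = 0.0689). Cxcl10 had -2.07, 3.42, -0.51 and 0.62 in aged and -0.001, -0.56, 0.024 and -0.11 in young libraries, a difference of 0.53 SD (SE 0.69, adjusted p = 0.499). For both ligands aged library 2 was far above the rest, and the aged library 1 value of Cxcl10 was the lowest of all. Without aged library 1 both passed, Cxcl9 with an adjusted p of 0.0377 and Cxcl10 with 0.0464, and so did Cxcl9 without aged library 3 (adjusted p = 0.0194).

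Cxcr6, a receptor of tissue-resident T and NK cells, and its ligand Cxcl16, a transmembrane chemokine that also takes up oxidised lipoprotein, were both higher in aged than in young ovaries. Cxcr6 had 1.30, 2.07, 0.18 and 0.20 in aged and -1.38, -1.84, -1.74 and -1.41 in young libraries, with no overlap and a difference of 2.53 SD (SE 0.39, adjusted p = 1.08e-05). It was also higher in adult ovaries, where its scores were 0.053, 0.21, -0.41 and 0.30, with a difference of 1.64 SD (SE 0.39, adjusted p = 0.0146) in adult against young. The young libraries lay below those of every other group for this gene. Its difference in aged against adult ovaries was 0.90 SD (SE 0.39, adjusted p = 0.0487) and was lost without any 1 of 6 libraries, named below. Cxcl16 had 1.79, 0.70, 1.55 and 1.52 in aged and -0.40, -0.55, -0.29 and -0.43 in young libraries, with no overlap, and a difference of 1.80 SD (SE 0.51, adjusted p = 0.00346). Its exons overlap those of Zmynd15 on the opposite strand, which moved the same way (2.18 SD, adjusted p = 4.44e-06). The strand setting was not given in the sources used here, so reads of the pair may be mixed. The same limit holds for Cxcr5 with Bcl9l, Cxcl10 with Art3 and Cx3cr1 with Gm33858, which overlap on opposite strands. It also holds for Ackr1 with Cadm3, which overlap on the same strand. Neither Art3 nor Cadm3 passed in aged against young or in aged HEP14 against aged ovaries.

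Ccr2, the receptor that brings monocytes out of marrow and into tissue, had 1.05, 3.02, 0.21 and 1.34 in aged and 0.027, -0.16, 0.27 and -0.61 in young libraries. Aged library 3 lay within the young range and the other aged libraries above it, and the difference was 1.52 SD (SE 0.50, adjusted p = 0.0104). Its ligand Ccl2 had 1.53, 2.03, 0.18 and 0.61 in aged and -0.41, -0.34, 0.36 and 0.76 in young libraries, which overlapped, and did not pass (1.0 SD, SE 0.56, adjusted p = 0.112). Ccl12, another ligand of Ccr2 in mouse, went the other way, with -1.68, -1.68, -0.34 and 0.34 in aged and 1.39, 0.43, 1.68 and 1.0 in young libraries and a difference of -1.97 SD (SE 0.48, adjusted p = 0.00118). Aged libraries 1 and 2 share its lowest value, and the groups do not overlap. Ccl2 and Ccl12 are close paralogs, and how reads that fit several genes were counted was not given in the sources used here. The difference from young ovaries became -1.13 SD for Ccl12 and 0.89 SD for Ccr2 without both aged libraries 1 and 2 and 0.98 SD for Ccr2 without aged library 2.

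Ccl5, a ligand made by T and NK cells, had 1.05, 3.27, 0.24 and 1.21 in aged and -0.59, -1.21, -0.89 and -0.83 in young libraries, with no overlap. The difference of Ccl5 was 2.33 SD (SE 0.45, adjusted p = 0.000125) against young and 1.92 SD (SE 0.45, adjusted p = 0.000916) against adult ovaries. Ccl4, an inflammatory ligand, had -1.80, -1.80, 0.78 and 2.54 in aged and -0.32, -1.11, -0.52 and 0.13 in young libraries and did not pass (0.39 SD, SE 0.66, adjusted p = 0.605). Aged libraries 1 and 2 share the lowest value of Ccl4 and aged library 4 has the highest, so the group lies on both sides of the young one.

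Receptors of lymphoid traffic were high in some aged libraries. Cxcr5, which leads B cells and follicular helper T cells into follicles, had 3.76, 0.27, 0.11 and 1.54 in aged and -0.16, -0.53, -0.57 and -0.45 in young libraries. All aged libraries lay above the young ones, libraries 1 and 4 far above, and the difference was 1.85 SD (SE 0.51, adjusted p = 0.00312). Ccr7, which leads naive T cells and dendritic cells to lymph nodes, had 3.40, -0.84, -0.054 and 2.05 in aged and -0.26, -0.37, -0.53 and -0.34 in young libraries, a difference of 1.51 SD (SE 0.59, adjusted p = 0.0256). Ccr4, a receptor of regulatory and type 2 helper T cells, had 1.71, -0.56, -0.21 and 3.6 in aged and -0.43, -0.42, -0.31 and -0.44 in young libraries, a difference of 1.53 SD (SE 0.59, adjusted p = 0.0234), and 5 libraries of several groups share its lowest value. For Ccr7 and Ccr4 aged library 2 was at or below the lowest young library, so the groups overlap. Cxcr4, the receptor of Cxcl12 on leukocytes and germ cells, had -0.82, 0.06, -0.51 and 2.44 in aged and -1.03, 0.48, -1.14 and -1.48 in young libraries. Aged library 4 stood high, the ranges overlapped, and the difference of 1.09 SD (SE 0.65, adjusted p = 0.136) did not pass. The difference from young ovaries became 0.71 SD for Ccr4 without aged library 4 and 0.76 SD for Ccr7 and 1.06 SD for Cxcr5 without aged library 1.

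The fractalkine pair went in opposite directions. Cx3cl1, a ligand held on the membrane of endothelial and epithelial cells (chromosome 8, 94772009 to 94782427, plus strand), had -0.04, -2.55, -2.13 and -1.58 in aged and 0.89, 0.94, 0.013 and 0.36 in young libraries. Aged library 1 lay just below the lowest young library and the other aged ones far below, and the difference was -2.13 SD (SE 0.44, adjusted p = 0.000256) against young and -1.66 SD (SE 0.44, adjusted p = 0.00261) against adult ovaries. Its receptor Cx3cr1, of monocytes and resident macrophages, had 2.23, 2.59, -0.10 and 0.55 in aged and -0.20, 0.84, -0.26 and 0.058 in young libraries. Aged libraries 1 and 2 were high and the other aged libraries within the young range, with a difference of 1.21 SD (SE 0.51, adjusted p = 0.037). That call was lost under 9 of 15 alternatives. Against adult ovaries Cx3cr1 was higher in every aged library, and the difference was 2.07 SD (SE 0.51, adjusted p = 0.00132). The difference from young ovaries became 0.78 SD for Cx3cr1 without aged library 2 and 0.12 SD for Cx3cr1 without both aged libraries 1 and 2.

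Cxcl12, a homeostatic ligand of stromal and endothelial cells (chromosome 6, 117168535 to 117181367, plus strand), had -1.65, -1.69, -0.94 and -0.67 in aged and 0.67, 1.69, 1.02 and 1.02 in young libraries. The groups do not overlap, and the difference was -2.34 SD (SE 0.47, adjusted p = 0.000167). Ackr3, the atypical receptor that binds and clears Cxcl12 (chromosome 1, 90203980 to 90216751, plus strand), had -1.84, -1.65, -1.79 and -2.06 in aged and 1.03, 0.42, 0.67 and 0.75 in young libraries. The 4 aged values lay close together, far below those of every other group, and the difference was -2.55 SD (SE 0.28, adjusted p = 2.81e-07) against young and -2.40 SD (SE 0.28, adjusted p = 9.31e-07) against adult ovaries. Cxcl14, a ligand made at rest by epithelia and fibroblasts (chromosome 13, 56288643 to 56296551, minus strand), had -2.57, -1.38, -1.06 and -1.53 in aged and 0.92, 0.65, 0.84 and 1.44 in young libraries. No aged library reached the lowest young one, and the difference was -2.59 SD (SE 0.38, adjusted p = 5.9e-06). Beside these, the mean score of 6 stromal markers lay at -1.65 to -0.49 in aged and 0.55 to 1.26 in young libraries, and 5 of the 6 were lower. Of 6 endothelial markers 3 were lower, against 41.3% of all genes. Also lower were 3 of 3 lymphatic endothelial markers, with a mean score of -2.05 to 0.093 in aged and 1.11 to 1.51 in young libraries, 4 of 5 fat markers (-0.63 to 0.98 in aged and 0.52 to 2.38 in young libraries) and 3 of 4 oviduct markers (-0.70 to -0.28 in aged and -0.013 to 2.23 in young libraries), and none of these 3 lists had a higher marker. The part of these cells in the result was not tested.

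**Figure D3:**
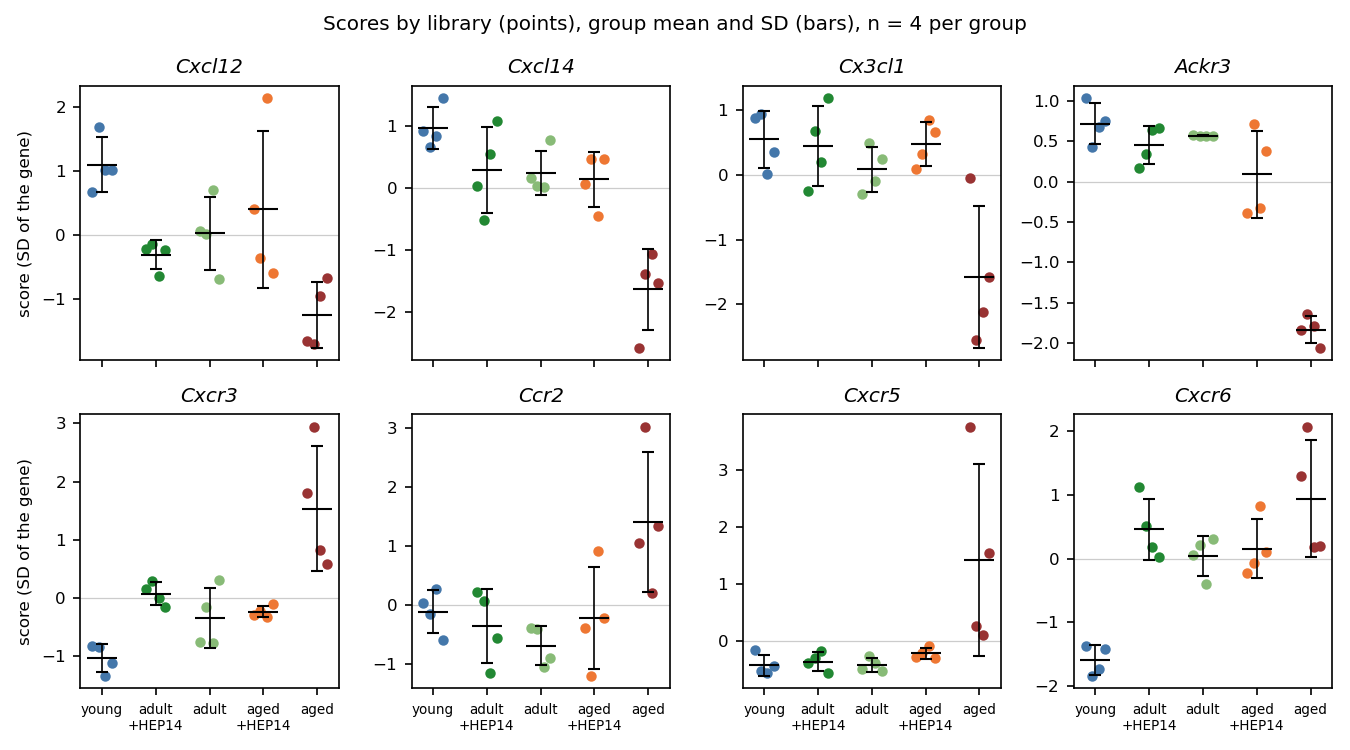
Score (in SD of the gene) of 8 members in each library (points) with the group mean and SD (bars), n = 4 per group. Cxcl12, Cxcl14, Cx3cl1 and Ackr3 are lowest in the aged group, while the aged group is highest and most scattered for Cxcr3, Ccr2 and Cxcr5, and the young group is lowest for Cxcr6.

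Ccl25, known for leading T cell precursors to the thymus and lymphocytes to the gut, had 2.81, 2.31, 0.54 and 0.75 in aged and -0.73, -0.78, -0.65 and -0.85 in young libraries. Libraries 1 and 2 were highest, no aged library overlapped the young ones, and the difference was 2.35 SD (SE 0.42, adjusted p = 5.67e-05). Its receptor Ccr9 was not analysed here. Ccl25 shares exon sequence with Elavl1 on the opposite strand, which moved the other way (-2.16 SD, adjusted p = 2.41e-06). Ccl27a, known as a skin chemokine, had 2.44, 1.96, 1.51 and 1.43 in aged and -0.78, -0.56, -0.57 and -0.60 in young libraries, again with no overlap, and a difference of 2.46 SD (SE 0.30, adjusted p = 7.56e-07). Its exons overlap those of Il11ra1 on the opposite strand (1.15 SD, adjusted p = 0.0539), and it has a near-identical copy, Ccl27b, so its reads are uncertain. Ccr10, the receptor of Ccl27a and Ccl28 on skin and mucosal lymphocytes, had -2.15, -2.15, -0.53 and -0.52 in aged and 0.36, 0.039, -0.46 and -0.76 in young libraries and a difference of -1.13 SD (SE 0.44, adjusted p = 0.0255). Ccl28, a mucosal ligand, had -1.35, -1.35, -0.95 and -1.35 in aged and 0.59, -0.14, 0.33 and -0.45 in young libraries and a difference of -1.33 SD (SE 0.52, adjusted p = 0.0273). Aged libraries 1 and 2 share the lowest value of Ccr10, and aged libraries 1, 2 and 4 that of Ccl28. The call was lost under 8 of 14 alternatives for Ccr10 and 7 of 14 for Ccl28. The difference from young ovaries became 1.40 SD for Ccl25 and -0.32 SD for Ccr10 without both aged libraries 1 and 2.

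Ccl6 and Ccl9, rodent ligands made by myeloid cells, had lower scores in aged ovaries. Ccl6 had -0.86, -1.48, -2.04 and -0.99 in aged and -0.14, -0.25, -0.0084 and -0.38 in young libraries, with no overlap and a difference of -1.15 SD (SE 0.40, adjusted p = 0.0144). Ccl9 had -2.11, -2.11, -1.06 and -0.91 in aged and -0.26, -0.39, 0.23 and -0.45 in young libraries, with no overlap and a difference of -1.33 SD (SE 0.39, adjusted p = 0.00476), and aged libraries 1 and 2 share its lowest value. The adult libraries were higher than the young ones for the most part, but neither gene passed in adult against young ovaries. Those differences were 0.55 SD (SE 0.40, adjusted p = 0.399) for Ccl6 and 0.65 SD (SE 0.39, adjusted p = 0.296) for Ccl9. In aged against adult ovaries the differences were -1.69 SD (SE 0.40, adjusted p = 0.00101) for Ccl6 and -1.98 SD (SE 0.39, adjusted p = 0.000185) for Ccl9. Of 11 macrophage and monocyte markers, 4 were higher and 2 lower in aged against young ovaries, and their mean score lay at -0.59 to 0.90 in aged and -0.55 to -0.35 in young libraries; their part in the result was not tested. Cxcl5, a ligand that draws neutrophils, shared its lowest value in all 4 aged libraries (-1.16 each), against -0.23, 0.28, -0.22 and 0.70 in young libraries, a difference of -1.29 SD (SE 0.50, adjusted p = 0.0245). Of 3 neutrophil markers in the table, Mpo and Ngp were at a shared lowest value in all 4 aged libraries too, and their part in the result was not tested. Ccl11, the eotaxin of the group, had -1.28, -1.0, 1.03 and -0.47 in aged and 0.92, 0.16, 1.15 and 0.094 in young libraries and did not pass (-1.01 SD, SE 0.65, adjusted p = 0.164). The difference from young ovaries became -0.76 SD for Ccl9 without both aged libraries 1 and 2.

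Of the other atypical receptors, Ackr1, which carries chemokines across venular endothelium, had 3.12, -1.08, 1.56 and 0.91 in aged and -0.21, 0.076, 0.23 and 0.70 in young libraries, and the difference of 0.92 SD (SE 0.56, adjusted p = 0.144) did not pass. Aged library 2 shares the lowest value with adult library 1, and the other aged libraries lay above every young one. Ackr2, a scavenger of inflammatory CC ligands, had -2.04, -2.04, 0.74 and 1.74 in aged and -0.39, -0.64, -0.47 and -0.56 in young libraries (0.11 SD, SE 0.64, adjusted p = 0.882). Its aged libraries 1 and 2 share the lowest value while libraries 3 and 4 lay above all young ones. Ackr1 passed without aged library 2 (1.66 SD, adjusted p = 0.00229).

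Of the 22 members that passed in aged against young ovaries, 9 did so under every alternative that held them: Ackr3, Ccl25, Ccl27a, Ccl5, Cx3cl1, Cxcl12, Cxcl14, Cxcr3 and Cxcr6. The call was lost without both aged libraries 1 and 2 for Ccl12, Ccl28, Ccl9, Ccr10, Ccr2, Cx3cr1 and Cxcl5 (adjusted p = 0.0533 to 0.832), with a separate variance per group for Ccl28, Ccl6, Ccr10, Ccr2, Cx3cr1, Cxcl16 and Cxcl5 (adjusted p = 0.0513 to 0.182), with equal library medians for Ccl28, Ccl6, Ccr10 and Cxcl5 (adjusted p = 0.12 to 0.128), with the compared groups only for Ccr10, Ccr4, Ccr7, Cx3cr1 and Cxcr5 (adjusted p = 0.0587 to 0.147) and without moderated variances for Cx3cr1 (adjusted p = 0.0545). When 1 library was left out, calls were lost without aged library 2 for Ccl28, Ccr10, Ccr2 and Cx3cr1 (adjusted p = 0.0502 to 0.158), aged library 4 for Ccl28, Ccr4 and Ccr7 (adjusted p = 0.0502 to 0.131), young library 1 for Ccl28, Ccr10 and Cx3cr1 (adjusted p = 0.0763 to 0.0835), young library 3 for Ccl28, Ccr7 and Cx3cr1 (adjusted p = 0.0517 to 0.0878), aged library 3 for Ccl6 (adjusted p = 0.0537), aged library 1 for Ccr10, Ccr4, Ccr7 and Cx3cr1 (adjusted p = 0.0648 to 0.139), young library 2 for Ccr10 and Cxcl5 (adjusted p = 0.0508 to 0.0599) and young library 4 for Cx3cr1 and Cxcl5 (adjusted p = 0.0642 to 0.0738). The threshold was passed instead with equal library medians for Ackr1, Ccl2, Cxcl9 and Cxcr4 (adjusted p = 0.0207 to 0.0378) and without both aged libraries 1 and 2 for Ackr1, Ackr2 and Ccl4 (adjusted p = 0.000621 to 0.0197). Calls were also gained when 1 library was left out, without aged library 2 for Ackr1 (adjusted p = 0.00229), aged library 3 for Ccl11 and Cxcl9 (adjusted p = 0.0194 to 0.048) and aged library 1 for Cxcl10 and Cxcl9 (adjusted p = 0.0377 to 0.0464).

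Markers of lymphocytes and dendritic cells moved with these receptors. Of 13 T and NK cell markers in the table, 11 were higher in aged against young ovaries and 0 lower, and their mean score lay at 0.44 to 2.29 in aged and -0.92 to -0.71 in young libraries. Of 9 B and plasma cell markers, 8 were higher and 0 lower, with a mean score of -0.04 to 3.15 in aged and -0.54 to -0.43 in young libraries. Of 6 dendritic cell markers, 5 were higher and 1 lower, with a mean score of 0.66 to 1.32 in aged and -0.48 to -0.21 in young libraries. Within the aged group the T and NK mean was 1.05, 2.29, 0.44 and 1.2 in libraries 1 to 4. Cxcr3, Cxcr6, Ccr2, Ccl5, Cxcl9 and Cxcl10 were highest in library 2 as well, and so were Cx3cr1 (2.59), Ccl2 (2.03) and Ackr3 (-1.65). These genes were picked after their values were seen. The macrophage and monocyte mean was 0.90, -0.40, -0.59 and 0.17 in libraries 1 to 4 and was not highest in library 2. The B and plasma mean was 1.61, 0.39, -0.04 and 3.15, and Cxcr5, Ccr7 and Ccr4 were highest in libraries 1 and 4. The part of these cells in the result was not tested.

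In aged against adult ovaries 12 members were higher and 9 lower, against 31.1% and 35.7% of all genes, and the median difference was 0.55 SD over the members and -0.26 SD over all genes. The aged libraries are the same ones as above, so both comparisons share them. Members that passed here but not against young ovaries were Ccl2 (1.75 SD, SE 0.56, adjusted p = 0.00928) and Ackr1 (1.75 SD, SE 0.56, adjusted p = 0.0103). The adult libraries had -1.32, -0.77, -1.18 and 0.60 for Ccl2, with libraries 1 to 3 below every aged library, and -1.08, -0.80, -0.47 and -0.14 for Ackr1. Ccl12 and Ccr4 passed against young ovaries and did not pass against adult ones (adjusted p = 0.763 and 0.0543 in this order). Of the 21 called members, Ackr3, Ccl25, Ccl27a, Ccl5, Ccl6, Ccl9, Ccr2, Cx3cl1, Cxcl14 and Cxcr3 passed under all alternatives that held them. Ccl9 was absent from the fit without genes that have a shared lowest value. The call was lost with the compared groups only for Ackr1, Ccr7, Cxcr5 and Cxcr6 (adjusted p = 0.0696 to 0.156), with a separate variance per group for Ccl2, Ccl28, Ccr10, Cxcl12, Cxcl16, Cxcl5 and Cxcr6 (adjusted p = 0.0539 to 0.17), without both aged libraries 1 and 2 for Ccl2, Ccr10, Cx3cr1, Cxcl12 and Cxcr6 (adjusted p = 0.0674 to 0.722), with equal library medians for Cxcl12 (adjusted p = 0.0766), with the replicate number as a block for Cxcr6 (adjusted p = 0.0587) and without moderated variances for Cxcr6 (adjusted p = 0.0511). When 1 library was left out, calls were lost without aged library 1 for Ackr1, Ccr7, Cxcl12 and Cxcr6 (adjusted p = 0.0505 to 0.123), adult library 4 for Ccr7 and Cxcr6 (adjusted p = 0.0515 to 0.0578), aged library 4 for Ccr7 (adjusted p = 0.0808), adult library 3 for Cxcl12 and Cxcr6 (adjusted p = 0.0754 to 0.13), aged library 2 for Cxcl12 and Cxcr6 (adjusted p = 0.0572 to 0.203), adult library 1 for Cxcr6 (adjusted p = 0.0776) and adult library 2 for Cxcr6 (adjusted p = 0.061). The threshold was passed instead without both aged libraries 1 and 2 for Ccl4 and Ccr4 (adjusted p = 0.00109 to 0.018) and with equal library medians for Ccr4 (adjusted p = 0.0164). Calls were also gained when 1 library was left out, without aged library 3 for Ackr2 and Ccr4 (adjusted p = 0.0137 to 0.0489), aged library 4 for Ackr2 (adjusted p = 0.00665) and aged library 2 for Ccr4 (adjusted p = 0.00596). Left-out libraries moved the difference to 1.08 SD for Ackr1, 0.82 SD for Ccr7 and 1.06 SD for Cxcr5 without aged library 1, 1.06 SD for Ccl2, 0.79 SD for Ccl25, 1.21 SD for Ccl5, -0.72 SD for Ccr10, 0.98 SD for Cx3cr1, -0.84 SD for Cxcl12, 1.05 SD for Cxcr3 and 0.15 SD for Cxcr6 without both aged libraries 1 and 2 and 0.52 SD for Cxcr6 without aged library 2.

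Between adult and young ovaries few members moved: 1 was higher and 1 lower, against 2.75% and 7.17% of all genes. Cxcr6, given above, passed under every alternative. Ccl12 had -1.04, -0.84, -0.72 and -0.049 in adult and 1.39, 0.43, 1.68 and 1.0 in young libraries, with all adult libraries below the young ones and a difference of -1.79 SD (SE 0.48, adjusted p = 0.0255). The call of Ccl12 was lost without any 1 of adult library 1, adult library 2, young library 1 and young library 3 (adjusted p = 0.0662 to 0.0798). Cxcl12 had 0.061, 0.026, 0.71 and -0.68 in adult libraries and did not pass (-1.07 SD, SE 0.47, adjusted p = 0.14). The threshold was passed instead with a separate variance per group for Ackr2, Cxcl12 and Cxcr3 (adjusted p = 0.0164 to 0.0461) and with the compared groups only for Ackr2 (adjusted p = 0.042). The 28 members that did not pass are not shown to be alike at these ages.

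With HEP14, aged ovaries had lower scores of the leukocyte receptors Cxcr3, Cxcr5, Ccr2, Ccr4 and Cx3cr1 and of the ligands Ccl2, Ccl5, Ccl25, Ccl27a, Cxcl9 and Cxcl16. They had higher scores of Cxcl12, Cxcl14, Cx3cl1, Ccl6, Ccl9 and Ccl28 and of the receptors Ackr3 and Ccr10. Of the 30 members 8 were higher and 12 lower in aged HEP14 against aged ovaries, against 33.2% and 29.3% of all genes, and 10 did not pass. For 9 members the 4 aged HEP14 libraries lay wholly above the aged ones and for 7 wholly below them, against 25.8% and 20.5% of all genes. The median difference was -0.75 SD over the members and 0.31 SD over all genes. Of the signalling receptors 1 was higher and 5 were lower, of the ligands 6 were higher and 6 lower, and of the atypical receptors 1 was higher and 1 lower. With the compared groups only, 1 receptor was higher and 1 lower and 5 ligands were higher and 4 lower, with a separate variance per group 1 and 4 receptors and 3 and 3 ligands, and with equal library medians 1 and 7 receptors and 5 and 6 ligands. This comparison and that of aged with young ovaries use the same 4 aged libraries, so their signs are not independent, and each comparison's values are given side by side with no test of their likeness.

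**Figure D4:**
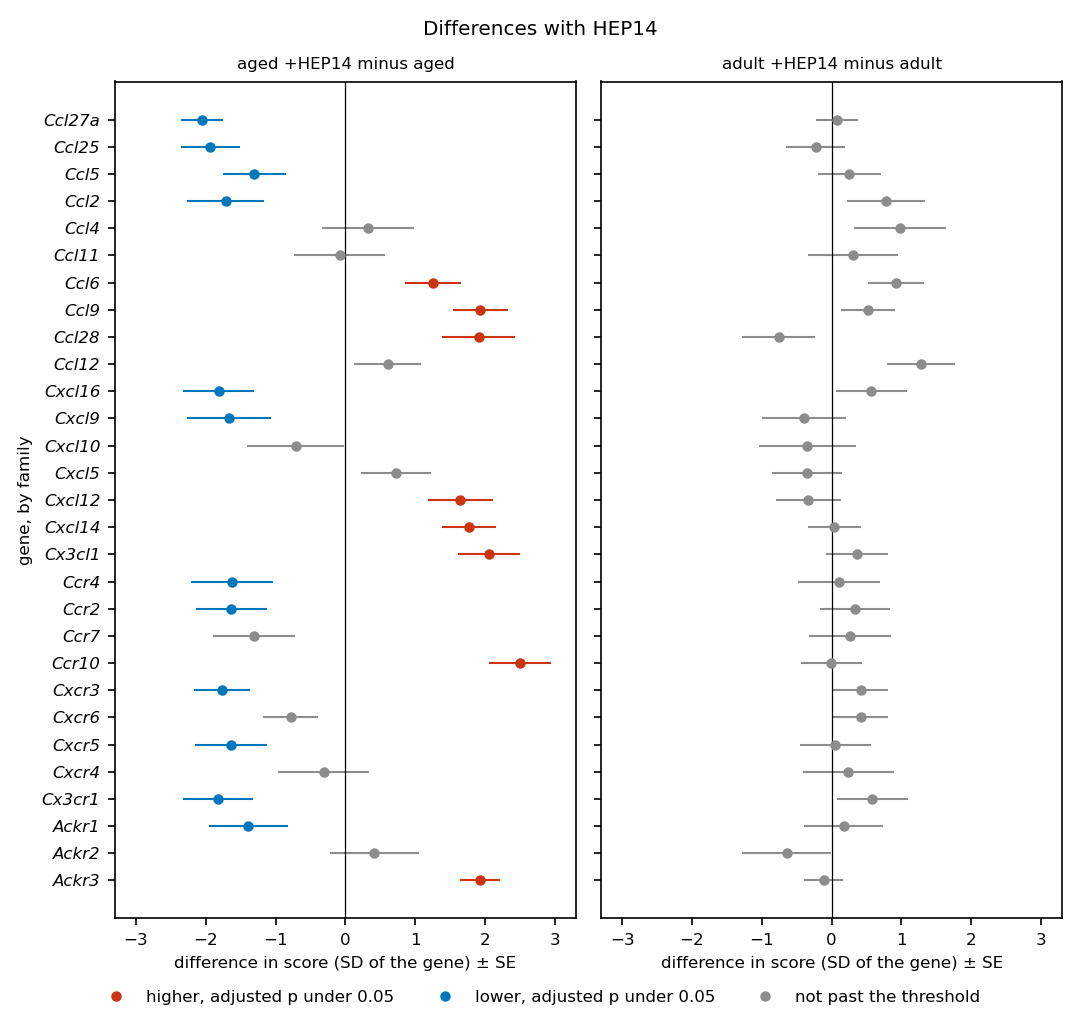
Differences in score (points, in SD of the gene, with SE bars) of 29 members in aged HEP14 minus aged ovaries on the left and in adult HEP14 minus adult ovaries on the right, coloured by the limma test. On the left 8 members are higher and 12 lower, and on the right all 29 shown are grey.

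Cxcr3 had -0.29, -0.22, -0.33 and -0.11 in aged HEP14 libraries, close together and below each of the aged libraries listed above, with a difference of -1.77 SD (SE 0.40, adjusted p = 0.000736). Its ligand Cxcl9 had -0.69, -0.61, -0.74 and -0.70, below all aged libraries, with a difference of -1.67 SD (SE 0.60, adjusted p = 0.02). Cxcl10 had -0.54, -0.20, -0.18 and -0.47, inside the range of the aged libraries, and did not pass (-0.71 SD, SE 0.69, adjusted p = 0.376). Cxcr6 had -0.23, -0.066, 0.82 and 0.10 and did not pass (-0.79 SD, SE 0.39, adjusted p = 0.0863), while its ligand Cxcl16 had -1.38, -0.32, 0.56 and -0.56, below every aged library, with a difference of -1.81 SD (SE 0.51, adjusted p = 0.00428). Zmynd15, which overlaps Cxcl16, moved the same way (-2.16 SD, adjusted p = 9.66e-06). The difference from aged ovaries became -0.78 SD for Cxcl9 without aged library 2 and -0.79 SD for Cxcl9 and -0.94 SD for Cxcr3 without both aged libraries 1 and 2.

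Ccr2 had -0.39, -1.21, 0.91 and -0.22 in aged HEP14 libraries, with library 3 inside the aged range, and a difference of -1.63 SD (SE 0.50, adjusted p = 0.00825). Ccl2 had -1.04, -0.49, 0.13 and -1.12, all below the lowest aged library, and a difference of -1.72 SD (SE 0.56, adjusted p = 0.0116). Ccl12 had -1.25, 0.11, 0.28 and -0.087 and did not pass (0.60 SD, SE 0.48, adjusted p = 0.282). Ccl5 had 0.011, 0.29, 0.054 and 0.21, with library 2 just above the lowest aged library, and a difference of -1.30 SD (SE 0.45, adjusted p = 0.0165). Ccl4 (0.32, 0.34, -0.015 and 0.36, 0.32 SD, SE 0.66, adjusted p = 0.685) overlapped with the aged libraries and did not pass. The 4 Ccl4 values lay close together where the aged ones were split. The difference from aged ovaries became -1.03 SD for Ccl2, -0.59 SD for Ccl5 and -1.0 SD for Ccr2 without both aged libraries 1 and 2 and -0.69 SD for Ccl5 without aged library 2.

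Cxcr5 had -0.28, -0.20, -0.087 and -0.29 in aged HEP14 libraries, all below the lowest aged library, with a difference of -1.64 SD (SE 0.51, adjusted p = 0.0091). Ccr4 had -0.56, -0.56, -0.42 and -0.41 and a difference of -1.62 SD (SE 0.59, adjusted p = 0.0212); libraries 1 and 2 are at its shared lowest value, as is aged library 2. Ccr7 had -0.67, 0.061, -0.011 and -0.064 and did not pass (-1.31 SD, SE 0.59, adjusted p = 0.0582). Cx3cr1 had -1.27, -1.10, 0.62 and -0.26, with libraries 1 and 2 lowest and library 3 inside the aged range, and a difference of -1.82 SD (SE 0.51, adjusted p = 0.00407). Beside these, 10 of 13 T and NK markers were lower and 1 higher, with a mean score of -0.25 to 0.042 in aged HEP14 and 0.44 to 2.29 in aged libraries. Of 9 B and plasma markers 5 were lower and 0 higher. Of 6 dendritic cell markers 4 were lower and 1 higher, with a mean score of -0.38 to 0.31 in aged HEP14 and 0.66 to 1.32 in aged libraries. Of 11 macrophage and monocyte markers, only 2 were lower and 1 was higher. Their mean score lay at -0.40 to 0.81 in aged HEP14 and -0.59 to 0.90 in aged libraries, which overlap. The part of these cells in the result was not tested. The difference from aged ovaries became -0.80 SD for Ccr4 without aged library 4, -0.73 SD for Cx3cr1 and -1.04 SD for Cxcr5 without both aged libraries 1 and 2 and -0.86 SD for Cxcr5 without aged library 1.

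Cx3cl1 had 0.089, 0.32, 0.85 and 0.67 in aged HEP14 libraries, all above the highest aged library, with a difference of 2.06 SD (SE 0.44, adjusted p = 0.000484). Ackr3 had -0.39, 0.71, -0.33 and 0.38, with libraries 1 and 3 below the other pair and all above the aged group, and a difference of 1.93 SD (SE 0.28, adjusted p = 1.08e-05). Cxcl14 had 0.063, 0.47, -0.45 and 0.47 and a difference of 1.77 SD (SE 0.38, adjusted p = 0.000486), again with no overlap. Cxcl12 had 0.41, -0.35, 2.14 and -0.58 and a difference of 1.64 SD (SE 0.47, adjusted p = 0.00472); library 3 was the highest of all 20 libraries, and the other libraries lay above the aged group as well. Cxcr4, its signalling receptor, had 0.14, -0.14, -0.22 and 0.14 and did not pass (-0.31 SD, SE 0.65, adjusted p = 0.69). Beside these ligands, stromal markers had 1 of 6 higher and 0 lower, and endothelial markers 4 of 6 higher and 0 lower. Lymphatic endothelial markers had 1 of 3 higher and 0 lower. Oviduct markers had 1 of 4 higher and 0 lower, and fat markers 0 of 5 higher and 1 lower. Of all genes 33.2% were higher and 29.3% lower, and these lists are short. The part of these cells in the result was not tested. The difference from aged ovaries became 1.07 SD for Cxcl12 without aged HEP14 library 3.

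Ccl25 had -0.24, -0.63, -0.34 and -0.12 and Ccl27a 0.069, 0.22, -0.74 and -0.40 in aged HEP14 libraries, both below every aged library. Their differences were -1.94 SD (SE 0.42, adjusted p = 0.000558) for Ccl25 and -2.05 SD (SE 0.30, adjusted p = 1.13e-05) for Ccl27a. Of the overlapping genes, Elavl1 moved the other way from Ccl25 (2.31 SD, adjusted p = 3.25e-06) and Il11ra1 the same way as Ccl27a (-1.63 SD, adjusted p = 0.0113). Ccr10 had 1.36, 0.79, 1.71 and 0.79, above every aged library, and a difference of 2.50 SD (SE 0.44, adjusted p = 6.86e-05). Ccl28 had 0.32, -0.34, 0.30 and 2.34, with library 4 highest, and a difference of 1.91 SD (SE 0.52, adjusted p = 0.00378). Ccl6 had -0.15, -0.76, 0.78 and -0.22 and Ccl9 0.60, 0.20, 0.78 and -0.031, above every aged library. The difference was 1.25 SD (SE 0.40, adjusted p = 0.0103) for Ccl6 and 1.93 SD (SE 0.39, adjusted p = 0.000276) for Ccl9. The difference from aged ovaries became -0.98 SD for Ccl25 without both aged libraries 1 and 2.

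Ackr1 had -0.58, 0.26, -0.18 and -0.54 in aged HEP14 libraries, inside the wide aged range, and a difference of -1.39 SD (SE 0.56, adjusted p = 0.0381). Ackr2 (-0.037, -0.0087, -0.66 and 0.76), Ccl11 (-0.27, -0.65, -0.34 and -0.79) and Cxcl5 (-0.40, -0.57, 0.095 and -0.88) did not pass, with differences of 0.41 SD (SE 0.64, adjusted p = 0.588), -0.081 SD (SE 0.65, adjusted p = 0.922) and 0.72 SD (SE 0.50, adjusted p = 0.211) in this order. All 4 aged HEP14 values of Cxcl5 lay above the shared lowest value of the aged libraries. Without aged libraries 1 and 2, which share the lowest value of Ackr2 and Ccl4, both of these turned to lower and passed, with -1.23 SD (adjusted p = 0.0322) for Ackr2 and -1.41 SD (adjusted p = 0.0145) for Ccl4. The difference from aged ovaries became -0.72 SD for Ackr1 without aged library 1 and -2.12 SD for Ackr1 without aged library 2.

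Of the 20 called members, Ackr3, Ccl25, Ccl27a, Ccl9, Ccr10, Cx3cl1, Cxcl14 and Cxcr3 passed under every alternative that held them. Ccl9 and Ccr10 were absent from the fit without genes that have a shared lowest value. The call was lost with a separate variance per group for Ackr1, Ccl2, Ccl28, Ccl6, Ccr2, Cxcl12, Cxcl16 and Cxcl9 (adjusted p = 0.0549 to 0.132), with the compared groups only for Ackr1, Ccl5, Ccr2, Ccr4, Cx3cr1, Cxcl12, Cxcl9 and Cxcr5 (adjusted p = 0.0522 to 0.171), without moderated variances for Ackr1 (adjusted p = 0.0618), without both aged libraries 1 and 2 for Ccl2, Ccl5, Ccr2, Cx3cr1, Cxcl12 and Cxcl9 (adjusted p = 0.0758 to 0.195) and with equal library medians for Ccl6 (adjusted p = 0.068). When 1 library was left out, calls were lost without aged library 1 for Ackr1 and Ccr4 (adjusted p = 0.0592 to 0.189), aged library 3 for Ackr1 (adjusted p = 0.0867), aged HEP14 library 1 for Ackr1 (adjusted p = 0.0837), aged HEP14 library 3 for Ackr1 (adjusted p = 0.0582), aged HEP14 library 4 for Ackr1 (adjusted p = 0.0815), aged library 2 for Ccl5 and Cxcl9 (adjusted p = 0.0684 to 0.0818) and aged library 4 for Ccr4 (adjusted p = 0.104). The threshold was passed instead without both aged libraries 1 and 2 for Ackr2, Ccl4 and Ccr7 (adjusted p = 0.0145 to 0.0322) and with equal library medians for Ccr7 and Cxcr6 (adjusted p = 0.0201 to 0.0233). Calls were also gained when 1 library was left out, without aged library 4 for Ccl4 and Cxcr6 (adjusted p = 0.0336 to 0.0488), aged library 2 for Ccr7 (adjusted p = 0.00281), aged library 3 for Ccr7 and Cxcr6 (adjusted p = 0.0199 to 0.03), aged library 1 for Cxcl10 (adjusted p = 0.0305) and aged HEP14 library 3 for Cxcr6 (adjusted p = 0.0421).

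In adult ovaries HEP14 moved none of the 30 members past the threshold by limma, where 0.00567% of all genes were higher and 0% lower, and 3 had an unadjusted p under 0.05. Of these, Ccl6 and Ccl12 are named for that reason after their values were seen. Ccl6 had 2.11, 1.14, 0.45 and 1.40 in adult HEP14 and 0.94, 0.54, -0.47 and 0.40 in adult libraries (0.92 SD, SE 0.40, adjusted p = 1). Ccl12 had 0.83, 0.11, -0.053 and 1.59 in adult HEP14 and -1.04, -0.84, -0.72 and -0.049 in adult libraries (1.28 SD, SE 0.48, adjusted p = 1). The libraries overlapped for both. The members that were lower with age had Cxcl12 at -0.30 ± 0.22 in adult HEP14 and 0.03 ± 0.57 in adult ovaries, and Ackr3 at 0.45 ± 0.24 in adult HEP14 and 0.57 ± 0.0036 in adult ovaries (SD, n = 4 each). Cxcl14 averaged 0.29 ± 0.69 in adult HEP14 and 0.25 ± 0.36 in adult ovaries, and Cxcr3 0.073 ± 0.19 in adult HEP14 and -0.34 ± 0.52 in adult ovaries.

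The difference made by HEP14 was itself compared between the ages, as the aged minus the adult difference. It passed for 16 members, 7 of them higher and 9 lower in aged ovaries, against 24.9% and 22.4% of all genes. Those that passed under every alternative that held them were Ackr3 (2.04 SD, SE 0.40, adjusted p = 0.000584), Ccl27a (-2.13 SD, SE 0.42, adjusted p = 0.00067), Ccl28 (2.66 SD, SE 0.74, adjusted p = 0.00658), Ccr10 (2.50 SD, SE 0.62, adjusted p = 0.00303), Cxcl14 (1.73 SD, SE 0.54, adjusted p = 0.0128) and Cxcr3 (-2.19 SD, SE 0.56, adjusted p = 0.00389). Ccl28 and Ccr10 were absent from the fit without genes that have a shared lowest value. With the library medians set equal, 5 members were higher and 12 lower. Gained calls were Ccr4 and Cxcr5 with a separate variance per group (adjusted p = 0.022 to 0.045). Equal library medians gained Ccr4, Cxcr5 and Cxcr6 (adjusted p = 0.033 to 0.044). Without both aged libraries 1 and 2, Ackr1, Ccl4, Ccr4, Ccr7 and Cxcr5 passed (adjusted p = 0.0034 to 0.038). With 1 library left out, Ackr1, Ccr4, Ccr7, Cxcl5, Cxcr5 and Cxcr6 passed at least once (adjusted p = 0.0040 to 0.045). Ccl5 (-1.56 SD, SE 0.64, adjusted p = 0.0495) and Ccl9 (1.41 SD, SE 0.55, adjusted p = 0.0411) lost their calls under most alternatives. Left-out libraries moved the difference to -0.75 SD for Ccl25, -0.84 SD for Ccl5, 0.85 SD for Ccl9, -1.31 SD for Cx3cr1 and -1.36 SD for Cxcr3 without both aged libraries 1 and 2 and -0.95 SD for Ccl5 without aged library 2.

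Set against young ovaries, aged HEP14 ovaries had 2 members higher and 0 lower, where 5.38% of all genes were higher and 10.5% lower. Cxcr6 had -0.23, -0.066, 0.82 and 0.10 in aged HEP14 and -1.38, -1.84, -1.74 and -1.41 in young libraries and a difference of 1.75 SD (SE 0.39, adjusted p = 0.00572), which passed under every alternative. Ccr10 had 1.36, 0.79, 1.71 and 0.79 in aged HEP14 and 0.36, 0.039, -0.46 and -0.76 in young libraries, with no overlap, and a difference of 1.37 SD (SE 0.44, adjusted p = 0.0389). The call of Ccr10 was lost with the replicate number as a block, without moderated variances and without any 1 of aged HEP14 library 1, aged HEP14 library 2, aged HEP14 library 3, aged HEP14 library 4, young library 2, young library 3 and young library 4 (adjusted p = 0.0509 to 0.109). Cxcl12 at -0.70 SD (SE 0.47, adjusted p = 0.317), Cxcl14 at -0.82 SD (SE 0.38, adjusted p = 0.142) and Ackr3 at -0.63 SD (SE 0.28, adjusted p = 0.131) did not pass, so a remaining difference from young ovaries is not shown, nor is its absence. The threshold was passed instead with a separate variance per group for Ackr3, Ccl12, Ccl5, Cxcl14 and Cxcr3 (adjusted p = 0.00675 to 0.035), with the compared groups only for Ccl11, Ccl12, Ccl5, Cxcl14 and Cxcr3 (adjusted p = 0.00657 to 0.048) and with the replicate number as a block for Ccl12 (adjusted p = 0.0431). Calls were also gained when 1 library was left out, without aged HEP14 library 3 for Ccl12 and Cxcl12 (adjusted p = 0.0264 to 0.0465) and young library 2 for Ccl12 (adjusted p = 0.0487).

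Many chemokine genes lie in clusters. The cluster on chromosome 11 from 83525778 to 83664683 (138.9 kb) holds Ccl5, Ccl9, Ccl6 and Ccl4, and its members differed: in aged against young ovaries Ccl5 was higher (2.33 SD), Ccl9 (-1.33 SD) and Ccl6 (-1.15 SD) were lower, and Ccl4 did not pass (0.39 SD). In the cluster on chromosome 11 from 82035571 to 82103400, Ccl12 was lower (-1.97 SD) while Ccl2 (1.0 SD) and Ccl11 (-1.01 SD) did not pass. The receptor genes Cxcr6 and Ccr2 both lie on chromosome 9, and both were higher (2.53 and 1.52 SD). Cxcl9 and Cxcl10 lie within 27.5 kb on chromosome 5, and neither passed. Coordinates follow the GENCODE M21 annotation of GRCm38, and the build of the deposited table is unknown.

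The promoters of 4 ligands are shown because they stand for the patterns above: neighbours on chromosome 11 that were lower with age (Ccl6 and Ccl9), an interferon-induced ligand that was high in aged library 2 (Cxcl10), and a resting ligand that was lower with age and higher with HEP14 (Cxcl14). Each is the 250 bases before the gene start from RefSeq on GRCm38.p6, 5′ to 3′ on the gene's strand, with matches to the motifs below in capitals. The places are Cxcl10 at chr5:92348890-92349139, minus strand, Cxcl14 at chr13:56296552-56296801, minus strand, Ccl9 at chr11:83578637-83578886, minus strand and Ccl6 at chr11:83593088-83593337, minus strand.
Cxcl10: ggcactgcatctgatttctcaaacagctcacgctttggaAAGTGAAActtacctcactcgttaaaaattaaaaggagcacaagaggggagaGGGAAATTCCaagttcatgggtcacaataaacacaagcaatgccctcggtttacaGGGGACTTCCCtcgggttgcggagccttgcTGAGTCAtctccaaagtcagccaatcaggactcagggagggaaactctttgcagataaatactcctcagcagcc
Cxcl14: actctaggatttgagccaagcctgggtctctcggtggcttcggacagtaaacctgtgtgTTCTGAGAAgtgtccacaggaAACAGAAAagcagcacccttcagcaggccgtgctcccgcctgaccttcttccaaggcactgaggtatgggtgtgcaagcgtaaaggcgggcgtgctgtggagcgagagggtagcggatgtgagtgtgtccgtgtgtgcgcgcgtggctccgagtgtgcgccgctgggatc
Ccl9: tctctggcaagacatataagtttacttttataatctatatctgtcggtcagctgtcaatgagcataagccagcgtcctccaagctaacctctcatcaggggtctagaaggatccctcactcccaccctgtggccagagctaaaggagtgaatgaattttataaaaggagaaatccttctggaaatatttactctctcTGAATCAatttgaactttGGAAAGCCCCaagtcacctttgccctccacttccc
Ccl6: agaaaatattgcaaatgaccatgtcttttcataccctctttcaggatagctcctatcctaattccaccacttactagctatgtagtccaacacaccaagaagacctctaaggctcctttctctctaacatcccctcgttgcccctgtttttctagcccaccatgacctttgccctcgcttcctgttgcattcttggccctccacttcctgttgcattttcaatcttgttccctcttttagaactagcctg

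The motifs searched on both strands were the site of interferon regulatory factors AANNGAAA, the interferon-gamma activated site TTCNNNGAA, the AP-1 site TGANTCA and the NF-kB site, which is given by name. Of 30 members 20 had a promoter in the RefSeq table. The regulatory factor site was in 4 of these (20%), Ccl28, Cxcl10, Cxcl14 and Cxcr6, against 23.9% of 27025 genes with a promoter. This short form was put in place of a longer interferon response element, of which Cxcl10 and Cxcl14 held a match, after the matches of the longer form had been seen. The longer form was rarer among all promoters, and with it the members' share lay above that of all promoters, so the side depends on the form. Shares for the longer form are not given here, so neither form is read as a result about the members. The activated site was in 1 (5.0%), Cxcl14, against 8.1%. The AP-1 site was in 4 (20%), Ccl27a, Ccl9, Ccr4 and Cxcl10, against 7.8%, and the NF-kB site in 3 (15.0%), Ackr2, Ccl9 and Cxcl10, against 8.2%. In Cxcl10 NF-kB matches begin at -104 and -103 and overlap each other. The promoter of Ccl6 held none of these letters in its window. Of the 4 genes with the regulatory factor site, Cxcr6 was higher, Cxcl14 and Ccl28 were lower and Cxcl10 did not pass in aged against young ovaries.

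Genes that act with chemokines were described by 5 lists, to be read against all genes, of which 33% were higher and 41.3% lower with age and 33.2% higher and 29.3% lower with HEP14. Of 21 cytokines and transcription factors that induce chemokines, 15 were higher and 2 lower in aged against young ovaries, with a median of 1.86 SD beside -0.41 SD over all genes. In aged HEP14 against aged ovaries 2 of them were higher and 11 lower, with a median of -1.71 SD beside 0.31 SD over all genes, and of -0.86 SD without aged libraries 1 and 2. Relb (2.58 SD, adjusted p = 8.34e-07) and Nfkb2 (2.56 SD, adjusted p = 1.48e-06), subunits of noncanonical NF-kB, were higher with age. Irf8, an interferon-regulated factor of myeloid and B cells, was lower with HEP14 (-2.32 SD, adjusted p = 9.72e-06). Tnfrsf1a, of the same list, was higher with HEP14 (2.29 SD, adjusted p = 1.16e-05). Of 13 genes for the glycosaminoglycans that hold chemokines on surfaces, 1 was higher and 10 were lower with age (median -2.22 SD), and 10 were higher and 0 lower with HEP14 (median 1.83 SD). Hs2st1, which adds sulfate to heparan chains, was lower with age (-2.55 SD, adjusted p = 1.66e-07) and higher with HEP14 (2.22 SD, adjusted p = 2.09e-06). Ext2, which lengthens those chains, was lower with age (-2.53 SD, adjusted p = 7.21e-07).

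Of 39 genes that carry the signal from chemokine receptors, 19 were higher and 15 lower with age, and 11 were higher and 17 lower with HEP14. The shares were 48.7% and 38.5% with age and 28.2% and 43.6% with HEP14, so that the lower share with age and the higher share with HEP14 were near those of all genes. With a separate variance per group 8 were higher and 11 lower with HEP14. The G protein subunit genes Gnai3 (-2.48 SD, adjusted p = 2.24e-07) and Gnb1 (-2.48 SD, adjusted p = 2.65e-07) were lower with age. Rhoa, a GTPase of cell movement, was higher with HEP14 (2.30 SD, adjusted p = 2.99e-06), and Arrb2, an arrestin that takes receptors off the surface, was lower (-2.25 SD, adjusted p = 3.51e-06). Of 9 enzymes that modify or clear chemokines or their receptors, 3 were higher and 4 lower with age, which is 33.3% and 44.4% and close to all genes, so the count is not a result about them. With HEP14 3 were higher and 1 lower, and 1 and 0 with a separate variance per group. Tpst1, which sulfates tyrosines of chemokine receptors, was lower with age (-2.50 SD, adjusted p = 1.27e-05) and higher with HEP14 (1.68 SD, adjusted p = 0.00104). Of 11 other chemokine-like ligands and receptors, 3 were higher and 4 lower with age (27.3% and 36.4%, both below all genes) and 4 higher and 0 lower with HEP14 (36.4% and 0%). With age they were 0 and 2 with the compared groups only and 1 and 2 with a separate variance per group, and with HEP14 2 and 0 under both. Cmklr1, the receptor of chemerin, was lower with age (-2.45 SD, adjusted p = 5.5e-05) and higher with HEP14 (1.60 SD, adjusted p = 0.00366). The aged libraries enter both comparisons.

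**Figure D5:**
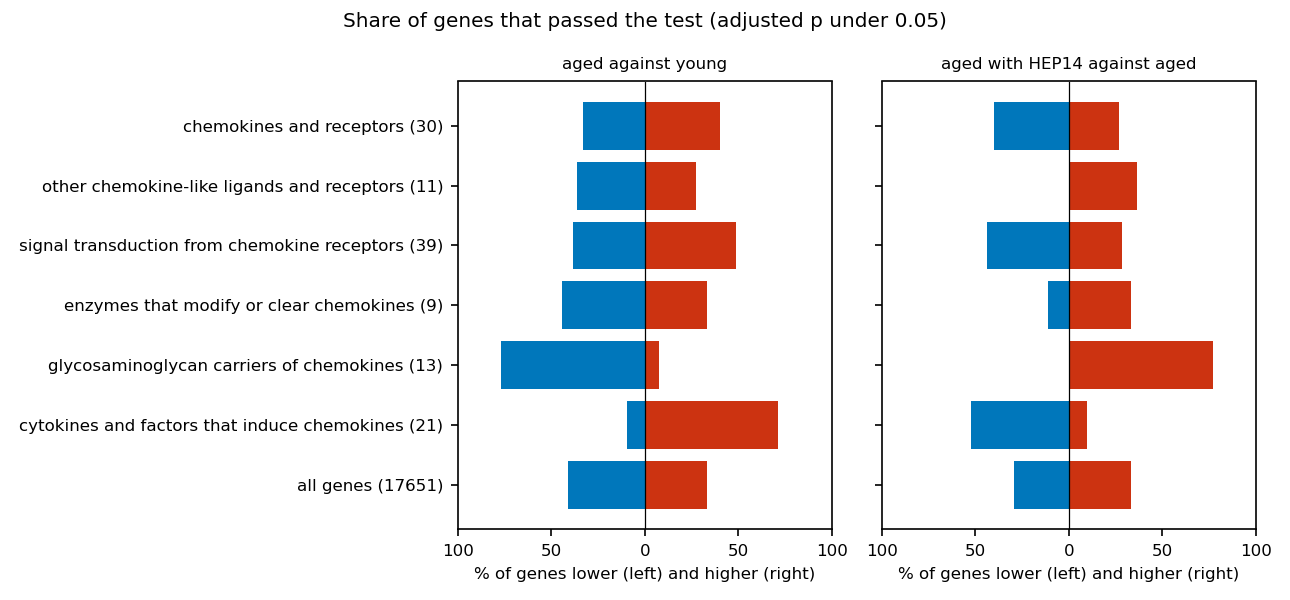
Percent of genes that passed as lower (left of 0) and higher (right of 0) in the 30 members, 5 lists of genes that act with chemokines, and all 17651 genes, for aged against young and aged HEP14 against aged ovaries. Inducers lie mostly to the right with age (15 of 21) and glycosaminoglycan carriers mostly to the left (10 of 13).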

How the data were processed

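RNA of whole ovaries was measured in 20 libraries, 4 in each of 5 groups, which were taken from the sample titles. TRIzol extraction and NovaSeq sequencing are stated per the labels' protocols. The tools DESeq2 1.20.0, featureCounts 1.5.0-p3 and HISAT2 2.0.5 are listed per the submitters' processing notes. Their roles, the genome build, the annotation and the strand setting were not given in the sources used here. The single table the authors deposited holds a score per gene and library, with mean 0 and SD 1 for each gene, so depth and levels are unknown and the planned logarithm, pseudocount and filter on low values could not be applied. All columns were used (0 left out). Gene identifiers were matched to GENCODE M21 (17630 of 17651). Each gene was fitted with limma 3.58.1 in R 4.3.3 over all 20 libraries with 1 coefficient per group, two-sided, and p-values were adjusted by Benjamini-Hochberg over the 17651 genes of each comparison, at 0.05. The fit was also run on simulated data, but the outcome is not given here, so that run lends the fit no support. Differences are the first-named minus the second-named group. A member is not reported here by name and stays in the counts of members; the rule for named genes takes those past the threshold whose 4 libraries do not overlap with the other 4, together with a list of ligand and receptor pairs, and for each list the 2 genes with the smallest p, of which the text gives some. The members and all lists were chosen with earlier results of these data known. The promoter motifs were chosen after seeing the data, and the interferon motif was shortened after the matches of a longer form had been seen, because of a limit on the form in which a motif could be given here. Alternatives were a separate variance per group, equal library medians, fits of the compared groups only, no moderation, the replicate number as a block, leaving out each library, leaving out genes with a shared lowest value, symbols ending in a digit only, and, chosen after seeing the data, leaving out aged libraries 1 and 2. Members with a shared lowest value were absent from the fit without such genes. Ccl27a was absent from the count of symbols ending in a digit.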

Additional observations from a re-analysis of the deposited data

Results flagged for a closer look

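In 9 of 145 groups of 4 libraries, 1 library lay far from the other 3 for its gene; chance gives about 1 in 20 groups such a library. They were Ccl11 in adult HEP14 library 4 (3.05), Ccl25 in adult HEP14 library 4 (-0.65) and in adult library 1 (-1.12), Ccl28 in aged library 3 (-0.95, with the other 3 at a shared lowest value), Ccl4 in aged HEP14 library 3 (-0.01), Ccr4 in young library 3 (-0.31), Ccr7 in adult HEP14 library 3 (-0.63) and in aged HEP14 library 1 (-0.67), and Cx3cr1 in adult HEP14 library 3 (-0.60).

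The difference made by HEP14 in aged ovaries, minus that in adult ovaries, passed the limma test for 16 members, of which 15 are named here. Ackr3 (2.04 SD, adjusted p = 0.000584), Ccl27a (-2.13 SD, adjusted p = 0.00067), Ccl28 (2.66 SD, adjusted p = 0.00658), Ccr10 (2.50 SD, adjusted p = 0.00303), Cxcl14 (1.73 SD, adjusted p = 0.0128) and Cxcr3 (-2.19 SD, adjusted p = 0.00389) did so under every alternative that held them. Ccl2 (-2.50 SD, adjusted p = 0.0139), Ccl25 (-1.71 SD, adjusted p = 0.0243), Cx3cr1 (-2.41 SD, adjusted p = 0.00993), Cxcl12 (1.98 SD, adjusted p = 0.019) and Cxcl16 (-2.38 SD, adjusted p = 0.0107) lost it under 1 or 2 alternatives each: without adult library 1 for Ccl25 (adjusted p = 0.0615), and otherwise with a separate variance per group or without both aged libraries 1 and 2. Ccl5 (-1.56 SD, adjusted p = 0.0495), Ccl9 (1.41 SD, adjusted p = 0.0411), Ccr2 (-1.96 SD, adjusted p = 0.0289) and Cx3cl1 (1.70 SD, adjusted p = 0.0313) lost it under 7 to 16 alternatives each, the removal of single libraries among them, with a highest adjusted p of 0.124, 0.201, 0.102 and 0.0961 in this order.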

How the results depend on the processing

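Counts of members are given as higher and lower, and the alternatives not named here stayed within 1.5 times the counts of the report. In aged against young ovaries (12 and 10), the lower members were 6 with a separate variance per group, 6 with equal library medians, 5 without aged libraries 1 and 2 and 5 without genes that have a shared lowest value, and the higher members were 7 in a fit of the compared groups only. In adult against young ovaries (1 and 1), there were 3 and 2 with a separate variance per group, 2 higher with the compared groups only, and 0 lower without genes that have a shared lowest value. In aged against adult ovaries (12 and 9), 5 were lower both with a separate variance per group and without genes that have a shared lowest value. In aged HEP14 against aged ovaries (8 and 12), there were 5 and 7 with a separate variance per group, 5 lower with the compared groups only, and 5 higher without genes that have a shared lowest value. In aged HEP14 against young ovaries (2 and 0), there were 4 and 3 both with a separate variance per group and with the compared groups only, and 1 higher without moderation or without genes that have a shared lowest value. For the difference of HEP14 between the ages (7 and 9), 4 were higher with a separate variance per group and without genes that have a shared lowest value. With single libraries left out, the counts ran from 9 to 13 and 8 to 10 in aged against young, 1 to 1 and 0 to 1 in adult against young, 9 to 14 and 8 to 10 in aged against adult, 8 to 9 and 11 to 14 in aged HEP14 against aged, 1 to 2 and 0 to 2 in aged HEP14 against young ovaries, and 5 to 8 and 6 to 12 for the difference between the ages. Ackr2 (-1.23 SD) and Ccl4 (-1.41 SD) reversed in aged HEP14 against aged ovaries without aged libraries 1 and 2, whose shared lowest values are those left out. Equal library medians moved the median of all genes in aged against young ovaries to 0.012 SD, against -0.41 SD as deposited, and that in aged HEP14 against aged ovaries to -0.057 SD, against 0.31 SD. Deviations of same-numbered libraries correlated at -0.188 to 0.155, and those of differently numbered libraries at -0.324 to 0.408. No comparison had all 4 same-numbered pairs above 0.1. Such a check cannot exclude a pairing or a shared batch, and the main fit treated the libraries as unpaired. With the replicate number as a block, the counts were 12 and 10, 1 and 1, 11 and 9, 0 and 0, 8 and 12, 1 and 1, and 6 and 7 for aged against young, adult against young, aged against adult, adult HEP14 against adult, aged HEP14 against aged, aged HEP14 against young and the difference between the ages. The cause of these changes was not tested, and another pseudocount was not run because scores take none. Unknown depth limits what can be said of members with shared lowest values.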

Other observations

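Several members shared a library in which they stood out. In adult HEP14 library 4, Ccl11 (3.05), Cxcl5 (2.59), Ccl2 (1.87) and Ccl12 (1.59) were each the highest of their group. Ccl9, Cx3cl1, Cxcl14, Cxcl16, Ackr2 and Ackr3 were highest of the group there too. Of these members, Ccl11, Cxcl5, Ccl2 and Ccl12 draw eosinophils, neutrophils and monocytes. For Ccl11, Cxcl5, Ccl9 and Cx3cl1 this library was the highest of all 20 libraries. It was the lowest of its group for Ccl5, Ccl25, Ccl27a, Ccr10, Cxcr3, Cxcr5 and Cxcr6. In the same library Cxcl12 was at -0.23, Cxcr3 at -0.15 and Cxcl9 at -0.39, close to their group. Its mean scores of neutrophil (-0.24), mast and eosinophil (-0.36) and macrophage and monocyte markers (0.66) lay within the range of the other 3 libraries. In aged HEP14 library 3, Cxcl12 (2.14), Ccr2 (0.91), Cx3cr1 (0.62), Cxcr6 (0.82) and Ccl6 (0.78) were the highest of their group. The same held for Ccr10 (1.71), Cx3cl1 (0.85), Ccl9 (0.78), Cxcl16 (0.56), Ccl12, Ccl2, Cxcl5, Cxcr5 and Cxcl10. So were its mean scores of macrophage and monocyte (0.81, others -0.40 to -0.059), mast and eosinophil (1.79, others -0.25 to 0.60), neutrophil (1.53, others 0.12 to 0.95), oviduct (1.27, others -0.43 to -0.17) and stromal markers (0.69, others -0.60 to -0.15). Its mean scores of B and plasma (0.12), dendritic (0.31), lymphatic endothelial (0.15) and fat markers (-0.23) were the highest of the group too. Lowest of the group were its mean scores of oocyte (-0.73), granulosa (0.065), theca and luteal (0.11) and blood markers (0.12). Their part in the values of the members was not tested. These libraries were picked after their values were seen, and no test was made.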
